A study of Mus musculus with 6 samples.

Results

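Kinesins are motor proteins that walk along microtubules or take them apart, using ATP. The genes described here are the 27 of 12393 genes on the array whose annotation symbol is Kif followed by a number, or Klc followed by a digit, each read from its probe set of highest mean. By textbook function 8 of them act mainly in the spindle or at cell division (Kif2a, Kif2c, Kif4, Kif11, Kif18a, Kif20a, Kif22 and Kif23), 17 are transport motors or the light chains that tie kinesin-1 to cargo, and 2 (Kif9 and Kif12) belong to neither group. Mitotic kinesins are made mostly in G2 and mitosis, when they build the bipolar spindle, align chromosomes and drive cytokinesis, so their transcripts are abundant in dividing fibroblasts. Transport kinesins carry vesicles, organelles and ciliary components in cells at any stage, and several of them are mainly neuronal.

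Transcripts were measured on 6 Affymetrix arrays, 1 for each line of mouse embryo fibroblasts (cells grown out of embryos) at passage 2, cultured and treated alike. The unstable group had 2 BubR1 H/H lines (hypomorphic BubR1 and wild-type CDC20 alleles) and 1 CDC20 AAA/AAA line (labelled hypomorphic for CDC20, with wild-type BubR1 alleles). The stable group had 2 BubR1 +/+ lines and 1 CDC20 +/+ line, all wild type at both loci. BubR1 is a spindle checkpoint kinase and CDC20 activates the anaphase-promoting complex, which the checkpoint restrains. The title numbers 9515 and 9938 (BubR1) and 10074 (CDC20) each name 1 unstable and 1 stable line, called a pair here. The labels do not say what the numbers stand for, nor that each line was made from its own embryo; p-values therefore cover line-to-line spread, which may be technical. Each CDC20 genotype is 1 line.

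Values are log2 levels after GCRMA, the background correction and normalization that the submitters applied. From 64.2% to 64.7% of probe sets per array reached log2 4, and with 6 arrays precision is limited by their number. The unstable minus stable difference of Bub1b, which encodes BubR1, was -1.66 and -2.08 in pairs 9515 and 9938 and -0.62 in pair 10074. That of Cdc20 was -0.10 in pair 9515 and -0.81 in both pair 9938 and pair 10074, so its transcript did not single out the CDC20 pair. All 10 fibroblast markers passed the filter on low values, with list means of 12.1 to 12.3 per line. Of 8 epithelium markers, Epcam, Cdh1, Krt5 and Cldn4 lay under log2 4 on every array, whereas Krt18 (5.93 to 7.02) and Krt19 (5.64 to 7.44) lay above it on all 6 and Krt8 on 3. Macrophage and leukocyte markers were present in all lines, with list means from 7.67 to 10.2 in stable and from 7.46 to 10.3 in unstable lines.

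The comparison of unstable with stable lines asks which motor transcripts accompany chromosome instability. Of the 8 mitotic kinesins, 7 were lower in the unstable line of all 3 pairs, where 19.3% of all 8382 genes tested were. In single pairs, 49.5%, 50.4% and 54.5% of all genes were lower (9515, 9938 and 10074), and 52.1% were lower over the group means. Their group differences ran from -0.29 for Kif22 to -0.82 for Kif2c on the log2 scale by the brightest probe sets, which is 1.22-fold to 1.76-fold. The exception was Kif2a, at 0.04. Transport kinesins differed less, with 10 of the 13 tested higher over the group means, beside 47.8% of all genes. In single pairs 6, 3 and 5 of the 13 were lower (9515, 9938 and 10074), beside the shares of all genes given above. Over all 8 mitotic members the median difference was -0.64, over the 13 transport members it was 0.14, and over all genes tested it was -0.01.

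No kinesin passed the test across all genes. With limma on 3 against 3 lines, 0 of the 21 kinesins tested and 0% of the 8382 genes had an adjusted p under 0.05, and the adjusted p was 0.999 for each kinesin. At an unadjusted p under 0.05 limma gave 1 mitotic kinesin lower, Kif20a, where 2.93% of all genes were, and 0 of the 13 transport kinesins higher, where 1.35% were. With the pair number as a block, limma gave 7 of the 8 mitotic kinesins lower at an unadjusted p under 0.05, where 6.92% of all genes were, and 2 of the 13 transport kinesins higher, where 5.24% were. Blocked adjusted p over all genes was 0.262 to 0.349 for the 7 mitotic kinesins, so again 0 passed. Over the 9 alternatives that leave out a line or a pair, the mitotic median ran from -0.31 without the unstable line of pair 10074 to -0.83 without the stable line of that pair, and it was -0.37 without the stable line of pair 9938.

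**Figure D1:**
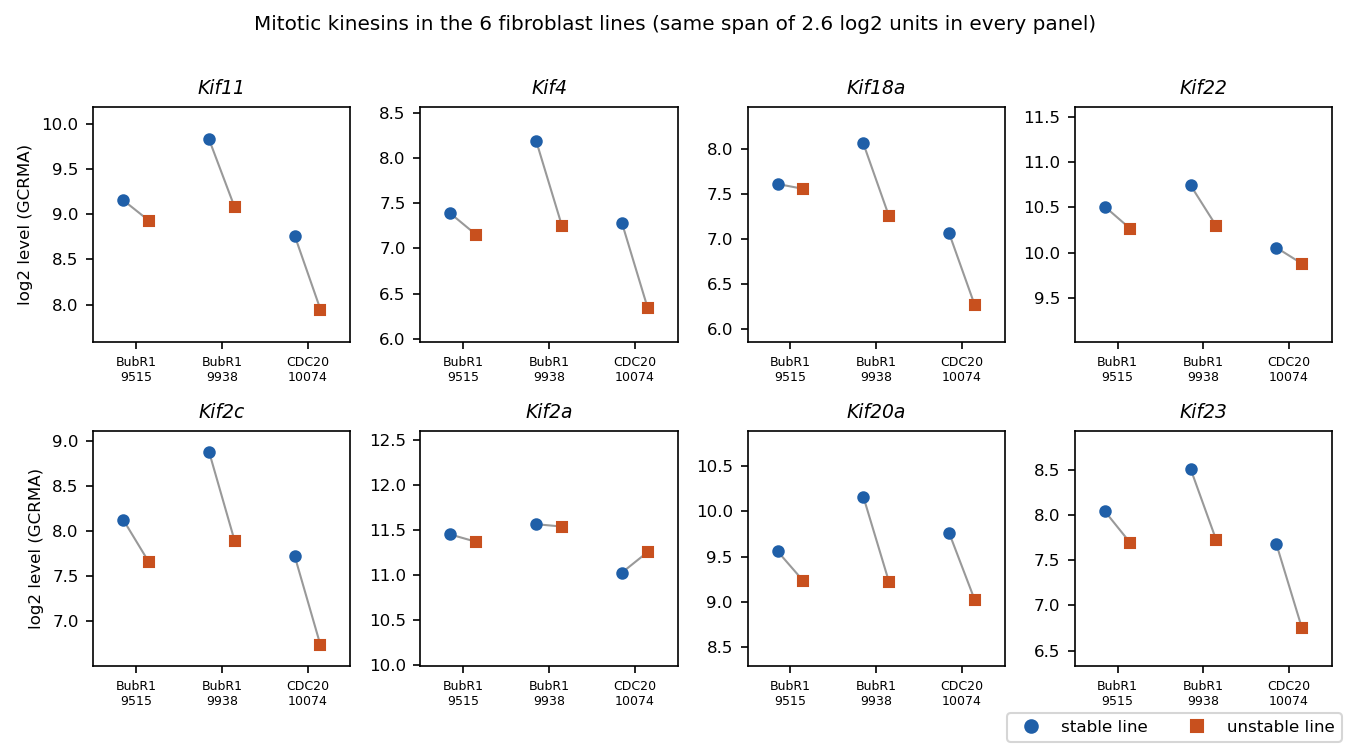
Log2 level (y axis, GCRMA) of the 8 mitotic kinesins in each line, by pair (x axis); circles are stable and squares unstable lines, 1 array each, and grey lines join a pair. In 7 panels every line slopes down from stable to unstable, most gently in pair 9515 for 6 of them, whereas Kif2a is nearly flat.

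The promoters of the mitotic members are shown first, because most of these genes had a like profile across the lines. Cell cycle genes of the G2/M phase are known to carry a short element near their start, the cell cycle homology region (TTTGAA in many genes), often next to CCAAT boxes bound by NF-Y. RefSeq windows of 300 bases ran from 250 before to 50 after the start (GRCm38.p6). They were found for 23 of the 27 kinesins, among them 7 of the 8 mitotic ones but not Kif20a. Printed here in the gene's direction are the 6 windows found for mitotic genes that were lower in unstable lines. For contrast, 1 of the 2 overlapping windows of Kif2a is added. Capitals mark a match on either strand to the cell cycle homology letters (TTTGAA and its variants TTTAAA and TTCGAA), to CCAAT, or to the E2F letters TTTGGCGC and TTTCGCGC; in a match on the reverse strand the complement is read.
Kif11, chr19:37376132-37376431, plus strand: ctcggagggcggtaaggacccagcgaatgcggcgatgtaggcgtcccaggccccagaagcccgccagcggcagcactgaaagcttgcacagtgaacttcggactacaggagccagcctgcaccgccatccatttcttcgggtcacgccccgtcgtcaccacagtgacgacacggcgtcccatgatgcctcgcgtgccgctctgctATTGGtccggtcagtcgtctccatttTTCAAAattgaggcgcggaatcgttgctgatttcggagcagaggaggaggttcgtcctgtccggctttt
Kif4, chrX:100625815-100626114, plus strand: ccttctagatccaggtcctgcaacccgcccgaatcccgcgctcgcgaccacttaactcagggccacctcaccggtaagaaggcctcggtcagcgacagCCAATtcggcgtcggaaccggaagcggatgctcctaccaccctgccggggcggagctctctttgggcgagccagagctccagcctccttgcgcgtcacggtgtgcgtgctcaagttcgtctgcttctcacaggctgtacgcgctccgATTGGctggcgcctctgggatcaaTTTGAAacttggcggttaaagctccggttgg
Kif22, chr7:127042371-127042670, minus strand: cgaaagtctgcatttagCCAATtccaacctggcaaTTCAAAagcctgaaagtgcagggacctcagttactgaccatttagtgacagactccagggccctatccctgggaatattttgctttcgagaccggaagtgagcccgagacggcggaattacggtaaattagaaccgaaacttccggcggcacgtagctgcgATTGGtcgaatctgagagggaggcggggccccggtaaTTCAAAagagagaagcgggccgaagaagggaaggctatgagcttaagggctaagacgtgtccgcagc
Kif23, chr9:61946750-61947049, minus strand: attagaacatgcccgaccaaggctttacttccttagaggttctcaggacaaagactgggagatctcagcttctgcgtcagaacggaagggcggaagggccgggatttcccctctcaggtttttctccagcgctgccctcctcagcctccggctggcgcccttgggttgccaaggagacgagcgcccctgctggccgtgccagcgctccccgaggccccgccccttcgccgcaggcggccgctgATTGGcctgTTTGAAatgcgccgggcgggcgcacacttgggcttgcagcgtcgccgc
Kif18a, chr2:109280488-109280787, plus strand: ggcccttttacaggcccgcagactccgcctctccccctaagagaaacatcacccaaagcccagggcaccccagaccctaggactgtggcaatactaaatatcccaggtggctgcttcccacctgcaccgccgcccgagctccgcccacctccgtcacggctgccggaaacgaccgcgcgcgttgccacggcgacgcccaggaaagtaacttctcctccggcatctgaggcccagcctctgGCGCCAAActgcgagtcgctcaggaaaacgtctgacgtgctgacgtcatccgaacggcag
Kif2c, chr4:117178723-117179022, minus strand: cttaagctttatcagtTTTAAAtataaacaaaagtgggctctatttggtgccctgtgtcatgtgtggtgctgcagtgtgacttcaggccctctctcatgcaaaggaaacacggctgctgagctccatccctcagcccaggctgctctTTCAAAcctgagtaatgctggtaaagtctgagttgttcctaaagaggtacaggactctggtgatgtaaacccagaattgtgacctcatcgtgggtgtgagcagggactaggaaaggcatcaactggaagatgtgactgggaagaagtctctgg
Kif2a, chr13:107022306-107022605, minus strand: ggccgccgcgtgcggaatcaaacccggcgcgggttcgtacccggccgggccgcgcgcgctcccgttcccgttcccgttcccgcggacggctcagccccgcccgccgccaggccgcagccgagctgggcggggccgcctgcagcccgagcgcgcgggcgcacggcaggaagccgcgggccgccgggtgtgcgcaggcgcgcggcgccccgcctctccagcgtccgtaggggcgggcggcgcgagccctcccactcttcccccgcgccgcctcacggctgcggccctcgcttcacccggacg

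TTTGAA was found in 5 of the 6 windows of mitotic kinesins other than Kif2a (Kif2c, Kif4, Kif11, Kif22 and Kif23), in 0 of the 2 Kif2a windows, in 1 of 16 transport windows (Kif1a) and in 17.9% of all 32851 windows of this length. In Kif11 it lies at -19 to -14 counted from the start, in Kif22 at -17 to -12 with a further copy at -215, in Kif23 at 3 to 8 and in Kif4 at 20 to 25. The copy in Kif2c is farther out, at -103 to -98. CCAAT was in 4 of the 6 mitotic windows, in 6 of the 16 transport windows and in 37.4% of all windows. An arrangement noticed after seeing these sequences, a reverse-strand CCAAT with TTTGAA up to 40 bases after it, was in 4 of the 6 mitotic windows (Kif4, Kif11, Kif22 and Kif23), 0 of the 16 transport windows and 0.779% of all windows. Kif2c and Kif18a lacked it. The number of bases between them was 19 in Kif4, 21 in Kif11, 32 in Kif22 and 4 in Kif23. TTTGAA within 50 bases of the start, also looked at after seeing the sequences, was in the same 4 mitotic windows, in 1 transport window and in 4.94% of all windows. The E2F letters TTTGGCGC were in Kif18a, on the reverse strand at -10 to -3, and in 0.514% of all windows. TTTCGCGC and TTCGAA were in 0 of the 6 mitotic windows and in 0.323% and 1.56% of all windows, and TTTAAA, a palindrome like TTCGAA, was in 1 (Kif2c) and in 13.2%. Matches are descriptions of letters, not sites of binding.

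**Figure D2:**
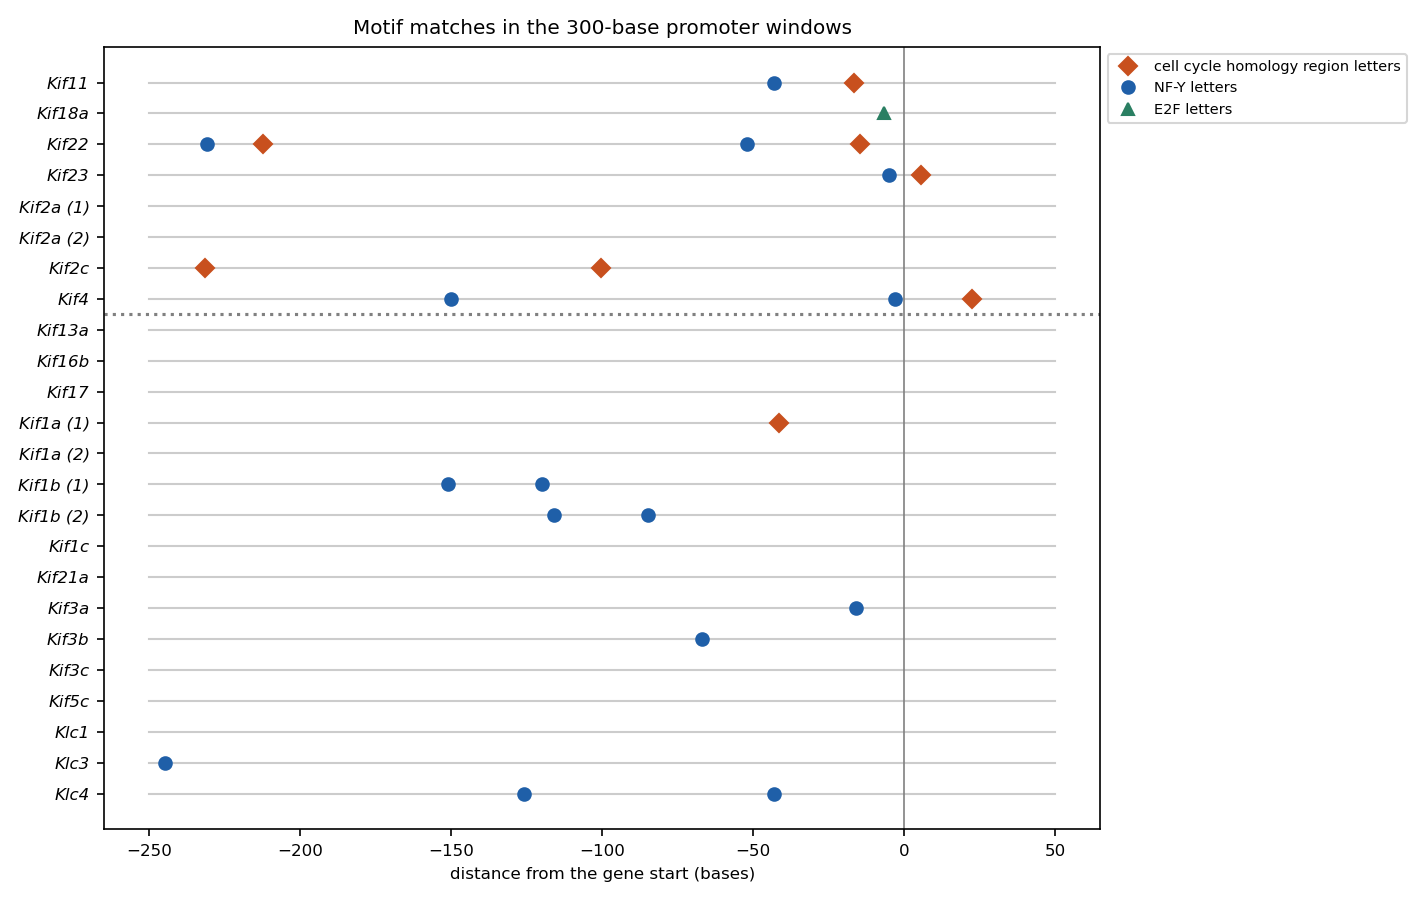
Positions of motif matches in each promoter window of a mitotic kinesin (above the dotted line) or a transport kinesin (below), by distance from the gene start in bases (x axis); diamonds are matches to the cell cycle homology region, circles to CCAAT and the triangle to E2F letters, and a number in brackets marks a gene's first or second window. Diamonds lie within 50 bases of the start in 4 mitotic windows and 1 transport window, Kif1a, beside 4.94% of all windows for TTTGAA.

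Kif11 encodes Eg5, the motor that slides antiparallel microtubules apart to make the spindle bipolar. Its level in stable lines was 9.16, 9.83 and 8.76 and in unstable lines 8.93, 9.08 and 7.95 (pairs 9515, 9938 and 10074, the order used for all genes here). The unstable line was the lower of each pair, by 1.17-fold, 1.69-fold and 1.76-fold, but the groups overlap because the stable line of pair 10074 lies under the unstable lines of the other pairs. The stable group averaged 9.25 ± 0.54 (SD, n = 3) and the unstable group 8.65 ± 0.61 (SD, n = 3), which differ by -0.60 (SE 0.39). All 3 Kif11 probe sets had a lower group mean in unstable lines, with differences of -0.52 to -0.75.

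Kif4 is a chromokinesin that binds chromosome arms and organises the central spindle. It measured 7.39, 8.19 and 7.28 in stable and 7.15, 7.25 and 6.34 in unstable lines. All unstable lines lay under all stable lines, although the highest unstable line was only just under the lowest stable line. The pair differences were -0.24, -0.94 and -0.94, and the group difference was -0.71 (SE 0.34). Groups of 3 lines that do not overlap, with unstable lines lower, occurred in 2 of the 8 mitotic kinesins, Kif4 and Kif20a, and in 6.41% of all genes tested.

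Kif18a shortens and steadies kinetochore microtubules as chromosomes align. Its stable lines were at 7.61, 8.06 and 7.07 and its unstable lines at 7.56, 7.25 and 6.27. In pair 9515 the levels were nearly equal (-0.05), whereas pairs 9938 and 10074 differed by -0.81 and -0.80. The group difference of -0.55 (SE 0.40) was the mean of these unequal pairs.

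Kif22, also called Kid, is the other chromokinesin and pushes chromosome arms outward. By its brightest probe set it measured 10.51, 10.75 and 10.05 in stable and 10.26, 10.30 and 9.88 in unstable lines, with a group difference of -0.29 (SE 0.21). Its other 2 probe sets gave -0.71 and -0.74, with -1.15 and -1.07 in pair 10074 against -0.18 by the brightest one. All 3 had the same sign in every pair but not the same size. The brightest has the Affymetrix suffix x_at, used where probes may bind other transcripts, and RefSeq lists a Kif22 pseudogene, so the size for Kif22 is uncertain.

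Kif2c and Kif2a are kinesin-13 depolymerases, which do not walk but remove tubulin from microtubule ends. Kif2c, known as MCAK, corrects wrong attachments at centromeres. It measured 8.13, 8.88 and 7.72 in stable and 7.66, 7.89 and 6.74 in unstable lines. The group difference was -0.82 (SE 0.40), and the pairs differed by 1.39-fold, 1.99-fold and 1.98-fold. These values are from an x_at probe set as well. With the mean of its 4 probe sets Kif2c differed by -0.45, less than Kif4 (-0.71), Kif20a (-0.67) or Kif11 (-0.62). That mean takes in 1 probe set under log2 4 on 5 arrays and 1 under it on all 6. Kif4 and Kif20a have 1 probe set each, so the means are not like for like. The second detected probe set had a group difference of -0.46 but was 0.13 higher in the unstable line of pair 9515. Kif2a, which works at spindle poles and in interphase cells including neurons, measured 11.45, 11.56 and 11.03 in stable and 11.37, 11.54 and 11.26 in unstable lines. Its levels in BubR1 pairs differed by -0.08 and -0.03 and those of the CDC20 pair by 0.23. The group difference was 0.04 (SE 0.17), all 4 detected Kif2a probe sets lay between 0.01 and 0.12, and the sign turned in 3 of the 9 fits that leave out a line or pair, with a lowest value of -0.12.

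Kif20a and Kif23 act at the end of mitosis. Kif20a carries the chromosomal passenger complex to the central spindle. It measured 9.56, 10.16 and 9.76 in stable and 9.23, 9.22 and 9.02 in unstable lines, so that the groups did not overlap. Its unstable lines were also the tightest of these genes, at 9.16 ± 0.12 (SD, n = 3), against 9.83 ± 0.31 (SD, n = 3) in stable lines. Kif23, the motor of the centralspindlin complex, measured 8.04, 8.51 and 7.68 in stable and 7.69, 7.72 and 6.75 in unstable lines. Both BubR1 H/H lines lay just above the CDC20 +/+ line, so the Kif23 groups overlap. Its group difference was -0.69 (SE 0.33), its second detected probe set gave -0.63, and the mean of its 3 probe sets -0.44. That mean takes in 1 probe set under log2 4 on all 6 arrays, with a mean level of 2.25.

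Across the lines the 7 mitotic kinesins other than Kif2a shared a profile. Each was highest in the stable line of pair 9938, as were Kif2a and 20.1% of all genes. Each of the 7, unlike Kif2a, was lowest in the unstable line of pair 10074, as were 18.6% of all genes. Both held for 8.23%. These extremes were not particular to kinesins. Of the 9 proliferation markers described below, 9 were highest and 8 lowest in the same lines. Of the 13 mitotic partners, listed genes that work with these motors, 13 were highest and 12 lowest there. Set against each gene's mean over the 6 lines, the median deviation of the 7 was 0.22, 0.78 and -0.11 in the stable and -0.04, -0.01 and -0.99 in the unstable lines. The stable CDC20 +/+ line was thus below both BubR1 H/H lines at this median, and 5 of the 7 genes were lower in it than in the BubR1 H/H line of pair 9938. For the proliferation markers the median deviation was 0.56 in the stable line of pair 9938 and -0.63 in the unstable line of pair 10074. Their median in the stable CDC20 +/+ line (0.17) was above those in the BubR1 H/H lines (-0.05 and -0.10). Over 6 lines the correlations among the 7 kinesins had a median r of 0.94 and a lowest of 0.70. Those with Kif2a had a median of 0.57. These are descriptions over lines that share arrays and pairs. The 7 are also the mitotic members that were lower in all 3 pairs, so part of their correlation can follow from that choice. Correlations over all genes were not computed.

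The group differences depended in size, though not in sign, on the unstable line of pair 10074 and the stable line of pair 9938. Without the unstable line of pair 10074 the group difference moved by over 1.5 times in 6 of the 7 genes, to -0.25 for Kif11, -0.42 for Kif4, -0.17 for Kif18a, -0.16 for Kif22, -0.47 for Kif2c and -0.37 for Kif23. Without the stable line of pair 9938 it moved as far in 5, to -0.31 for Kif11, -0.42 for Kif4, -0.31 for Kif18a, -0.14 for Kif22 and -0.50 for Kif2c. Kif20a moved least, to -0.60 and -0.51. Leaving out the stable line of pair 10074 took Kif22 to -0.48.

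Pair 9515 had the smallest difference for 6 of the 7 genes. In it 0 of the 7 were at least 1.5-fold lower, beside 1.12% of all genes; in pair 9938 it was 6 of 7 beside 4.21%, and in pair 10074 also 6 of 7 beside 5.39%. Kif22 was the gene under 1.5-fold in both of those pairs. In the BubR1 lines alone, 2 H/H against 2 +/+, the 7 genes differed by -0.35 for Kif22 to -0.73 for Kif2c, and limma gave an adjusted p above 0.999 for each. Kif23 alone had an unadjusted p under 0.05 there (-0.57, SE 0.20), where 1.67% of all genes were lower at that level. The CDC20 pair is 1 line against 1 and has no test of its own. In a test of the BubR1 effect minus the CDC20 effect, the latter is 1 line against 1, so the spread comes from the BubR1 lines alone. It called 0% of genes, with values for the 7 kinesins from -0.17 for Kif22 to 0.37 for Kif18a and adjusted p = 0.9995 by limma. At an unadjusted p under 0.05 it gave 0 of the 21 kinesins and 1.59% of all genes. What size of difference between the loci these lines could show was not measured.

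**Figure D3:**
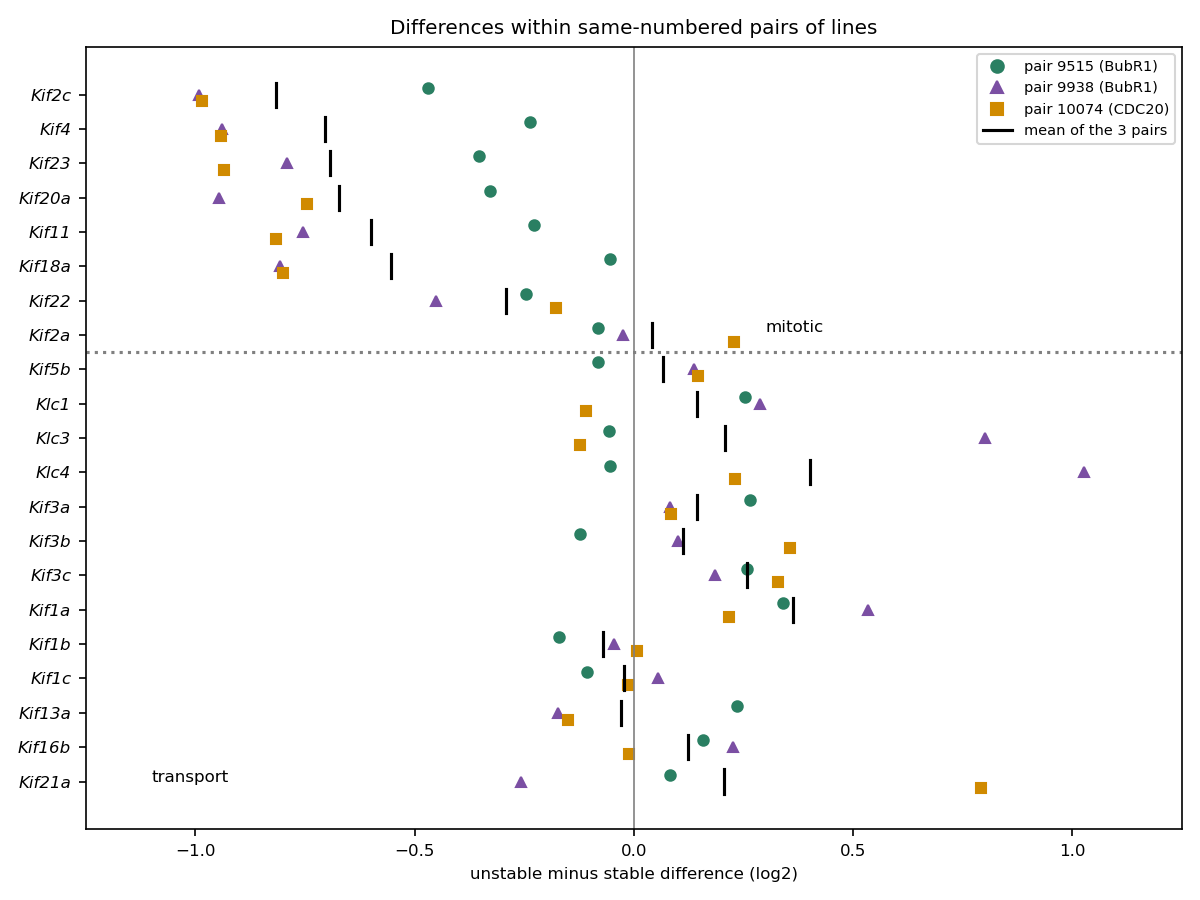
Unstable minus stable difference in log2 units (x axis) for each mitotic kinesin (above the dotted line) and each transport kinesin tested (below); symbols are the 3 pairs, spread vertically for legibility, and black bars their mean. The 7 upper genes lie left of 0 in all pairs, while transport genes scatter around 0, with Klc4 and Klc3 in pair 9938 and Kif21a in pair 10074 farthest to the right.

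Among the transport kinesins 13 of 17 passed the filter on low values. Kif3a, Kif3c and Kif1a were higher in the unstable line of all 3 pairs, and 0 of the 13 were lower in all 3, beside 16.9% and 19.3% of all genes. A count of 3 in 13 is near the first background share. Group differences ran from -0.07 for Kif1b to 0.40 for Klc4, and the pair medians were 0.08, 0.14 and 0.08. At least 1.5-fold higher were 0 of the 13 in pair 9515, 2 in pair 9938 (Klc3 and Klc4) and 1 in pair 10074 (Kif21a), beside 1.77%, 4.72% and 2.99% of all genes. The stable line of pair 9938 was the lowest of the 6 for 7 of the 13, beside 21.6% of all genes. The median correlation over lines was 0.13, so these genes had no common profile like that of the mitotic members.

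Kinesin-1, the main carrier of organelles and vesicles in most cells, is built of a heavy chain and light chains that bind cargo. The heavy chain gene Kif5b measured 11.59, 11.52 and 11.06 in stable and 11.51, 11.66 and 11.21 in unstable lines. All 5 of its probe sets had slightly higher group means in unstable lines, by 0.05 to 0.16, less than the spread between lines. The light chain gene Klc1 measured 8.53, 8.36 and 8.85 in stable and 8.78, 8.65 and 8.74 in unstable lines, and the pairs differed by 0.25, 0.29 and -0.11. Klc4 was at 6.74, 6.47 and 7.10 in stable and at 6.69, 7.49 and 7.33 in unstable lines. In pair 9938 this was 2.04-fold, the widest difference of any transport kinesin in a pair, and in pair 9515 the levels were nearly equal. Klc3 showed the same contrast, with 5.55, 4.75 and 5.57 in stable and 5.50, 5.55 and 5.44 in unstable lines. Its stable line of pair 9938 was low and the other 5 lines lay between 5.44 and 5.57. Without pair 9938 the differences were 0.09 for Klc4 and -0.09 for Klc3.

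Kinesin-2 motors move cargo into cilia and along interphase microtubules, as dimers of Kif3a with Kif3b or Kif3c. Kif3c measured 6.05, 5.98 and 6.12 in stable and 6.30, 6.17 and 6.45 in unstable lines. It was the only transport kinesin tested whose groups did not overlap, which with unstable lines higher held for 3.54% of all genes. Its difference of 0.26 (SE 0.11) had an unadjusted p of 0.053 by limma, and it kept its direction without any line or pair, at 0.19 to 0.33. Kif3a measured 8.40, 8.12 and 8.57 in stable and 8.66, 8.20 and 8.66 in unstable lines, and Kif3b differed by -0.12, 0.10 and 0.36 over the pairs. Kifap3, the subunit that joins this motor to cargo, lies outside the symbol rule and differed by 0.14 (SE 0.10).

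Kinesin-3 motors carry synaptic vesicle precursors, endosomes and other membrane cargo. Kif1a, best known from axons, measured 5.27, 5.05 and 6.19 in stable and 5.61, 5.58 and 6.40 in unstable lines. It was higher in each unstable line by 0.34, 0.53 and 0.22, while both CDC20 lines lay above all BubR1 lines. Its second probe set gave -0.12, 0.56 and 0.01, so the direction in pair 9515 depends on the probe set. Kif1b and Kif1c hardly differed, at -0.07 (SE 0.09) and -0.02 (SE 0.12). Kif13a and Kif16b, which act on endosomes, differed by -0.03 (SE 0.14) and 0.12 (SE 0.11). The 6 detected Kif1b probe sets disagreed in size and sign, from -0.07 to 0.16, and the brightest, used here, was the only 1 with a lower mean. Kif21a, a kinesin-4 that curbs microtubule growth at the cell edge, was near the floor, at 4.82, 4.22 and 3.86 in stable and 4.90, 3.97 and 4.65 in unstable lines, and its pairs differed in sign.

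**Figure D4:**
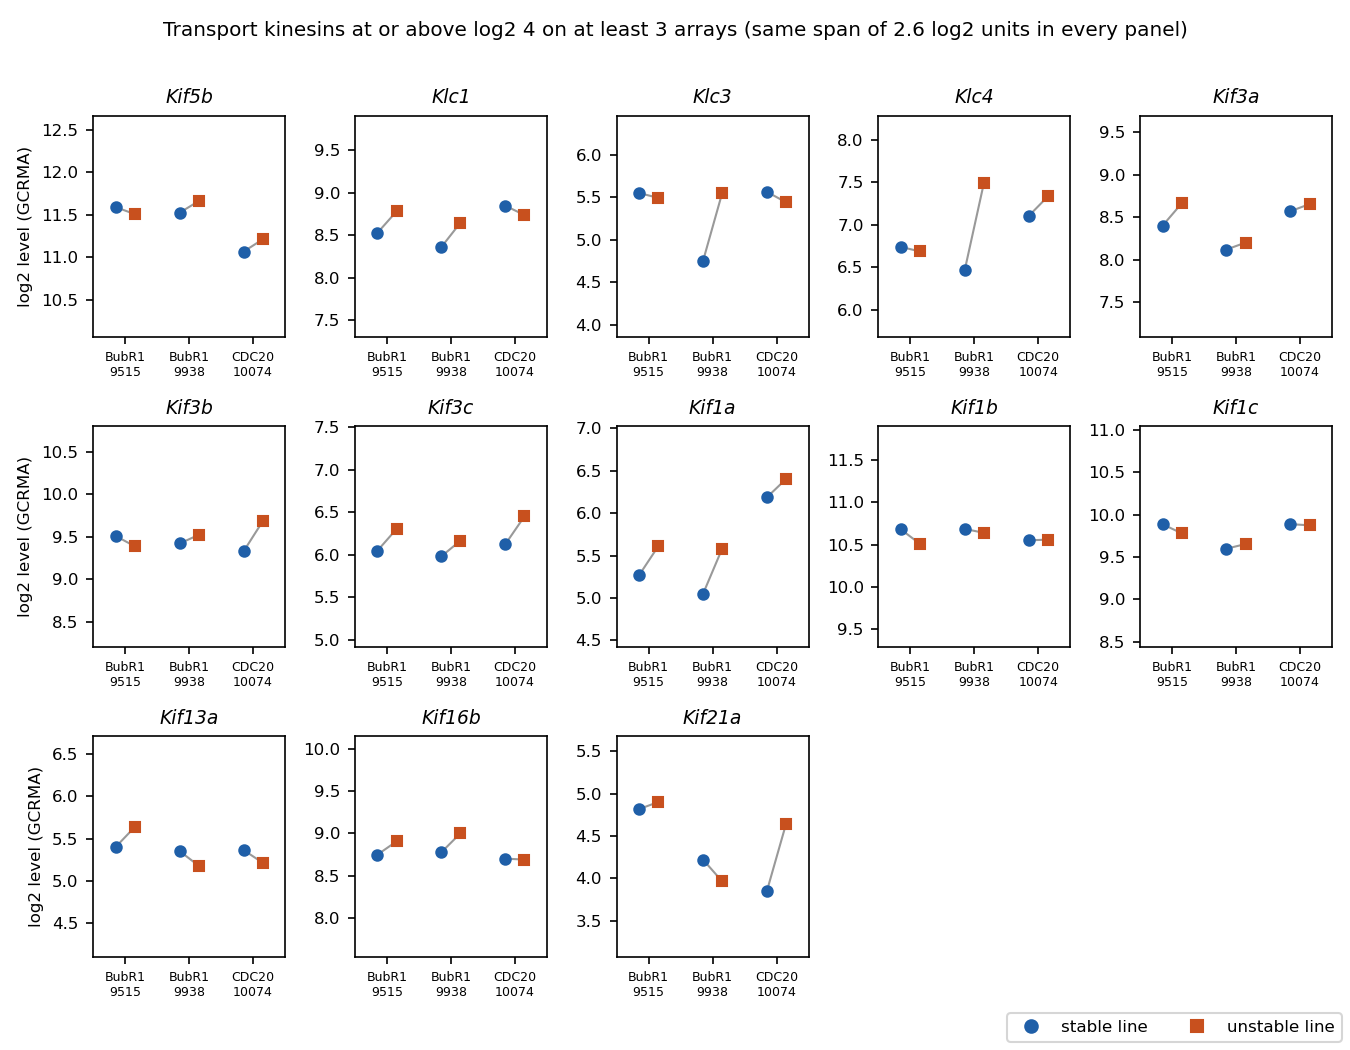
Log2 level (y axis, GCRMA) of the 13 transport kinesins that passed the filter, by pair (x axis); circles are stable and squares unstable lines, 1 array each, over the same span of log2 units as the mitotic panels. Most pairs are nearly flat; the steepest slopes are Klc4 and Klc3 in pair 9938 and Kif21a in pair 10074.

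A further 6 kinesins did not pass the filter of log2 4 on at least 3 arrays and were not tested. Kif5a, an axonal heavy chain, lay between 2.88 and 3.14, Kif17, a dendritic kinesin-2, between 2.40 and 2.61, and Kif21b between 2.66 and 3.06. Kif12 lay between 1.69 and 1.89 and Kif9, a motor of motile cilia, between 2.75 and 3.54. Kif5c, the other neuronal heavy chain, was under 4 on 4 arrays, with 4.23 and 4.26 in the lines of pair 9515. Of 10 neuron markers, Map2, Snap25, Syt1, Nefl, Nefm, Elavl3, Elavl4 and Rbfox3 were under log2 4 on all arrays, but Stmn2 (7.71 to 10.48) and Tubb3 (7.70 to 9.22) were above it on all 6. Stmn2 differed by -0.57, -0.95 and 0.20 over the pairs, and Tubb3 by 0.45, -0.40 and 0.30. Of 5 ciliated cell markers, Foxj1, Tekt1, Rsph1 and Dnah5 were under log2 4 on all arrays and Tekt2 was at 4.59 to 5.09.

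Genes that work with these motors were read from lists. Of the mitotic partners, all 13 on the array had a lower mean in unstable lines, beside 52.1% of all genes tested. In every pair 12 were lower, beside 19.3%, and the median difference was -0.52. They include Racgap1, which pairs with Kif23 in centralspindlin, at -0.74 (SE 0.29), and Prc1, which recruits Kif4 to the central spindle, at -0.41 (SE 0.17). Among motors outside the symbol rule 3 of the 4 tested had a lower mean, beside 52.1% of all genes. In every pair 2 were lower, Cenpe and Kifc3, beside 19.3%. Cenpe, which moves chromosomes to the spindle equator, and Kifc1, which focuses spindle poles, differed by -0.67 (SE 0.46) and -0.40 (SE 0.21). Kifc3 differed by -0.18 (SE 0.18), and Kifc2 and Kifc5b did not pass the filter. Kifc1 was 0.12 higher in the unstable line of pair 9515. Among the cargo adaptors tested 7 of 10 had lower means (median difference -0.05), beside 52.1% of all genes. Of dynein and dynactin, the motor that runs the other way along microtubules, 10 of 16 were higher, beside 47.8%, with a median of 0.03. By limma 0 members of these lists passed. At an unadjusted p under 0.05 it gave 1 of the 13 mitotic partners lower, Racgap1. Of the 16 dynein and dynactin genes it gave Nde1 lower (-0.30, SE 0.11) and Dctn3 higher (0.32, SE 0.12). Of all genes 2.93% were lower and 1.35% higher at that level.

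Proliferation markers were lower alongside the mitotic kinesins. Each of the 9 on the array was lower in all 3 pairs, beside 19.3% of all genes. At an unadjusted p under 0.05 limma gave 5 of the 9 lower, beside 1 of the 8 mitotic kinesins and 2.93% of all genes. Groups did not overlap, with unstable lines lower, for 7 of the 9, beside 2 of the 8 and 6.41%. The median difference of the markers was -0.52, or -0.12, -0.63 and -0.81 by pair, beside -0.24, -0.80 and -0.81 for the 8 mitotic kinesins. Their list mean was 10.6 to 11.0 in stable and 9.93 to 10.4 in unstable lines. On arrays of whole cultures, fewer dividing cells and less RNA per cell cannot be told apart. The macrophage and leukocyte markers, of which 15 of 15 passed the filter, all had a lower mean in unstable lines, beside 52.1% of all genes. The median difference was -0.36. Lower in every pair were 3 of the 15, which is near the 19.3% of all genes. By pair the medians of these markers were -0.22, 0.16 and -1.19. They were lowest in pair 10074 and above 0 in pair 9938, where the mitotic kinesins were at -0.80. The part of either marker list in the result was not tested.

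**Figure D5:**
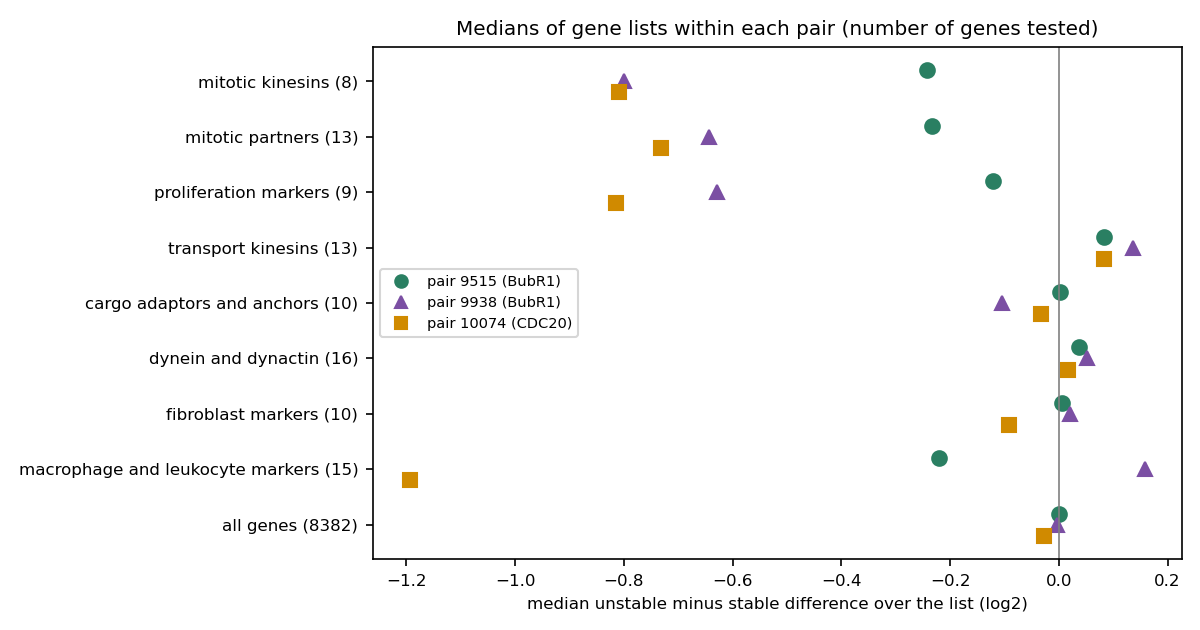
Median unstable minus stable difference in log2 units (x axis) of each gene list (y axis, number of genes tested in brackets) in the 3 pairs, shown by symbols spread vertically for legibility. Mitotic kinesins, mitotic partners and proliferation markers lie left of 0 in every pair and farthest in pairs 9938 and 10074. The transport, adaptor, dynein and fibroblast lists and all genes stay near 0. Macrophage and leukocyte markers lie at -0.22, 0.16 and -1.19 in pairs 9515, 9938 and 10074, the last being farther left than any other list.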

How the data were processed

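Per the labels' protocols, total RNA was extracted with Trizol and columns, and amplified cDNA was labelled with biotin. The authors' deposited values are log2 levels per probe set, made with GCRMA 2.28.0 in R 2.15.3 per the submitters' processing notes; GCRMA normalizes arrays to a common distribution, which removes differences in overall brightness. No scanner file was analysed, and the authors' genome build is not given in the sources used here. Among 22626 probe sets, 20380 had 1 symbol in the platform annotation, 691 several and 1555 were unlisted; the last 2 kinds were left out. All 27 kinesin symbols matched RefSeq (GRCm38.p6) by Entrez identifier, and 0 differed.

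Genes that reached log2 4 on 3 or more arrays were fitted with limma 3.58.1 in R 4.3.3 (lmFit, eBayes, two-sided, Benjamini-Hochberg over 8382 genes, threshold 0.05), without a block; BubR1 and locus contrasts came from a model with 4 genotype groups. Standard errors come from those fits. An exact permutation test of 3 against 3 cannot go below 0.1 and was not used. Deviations from group means correlated at 0.54 to 0.75 for lines of the same title number and at -0.60 to 0.05 otherwise, so numbers were taken to pair the lines. The scripts were tested on simulated data. Named genes are all members; partner and marker genes come from lists. The members and lists were chosen with earlier results of these data known. Alternatives were other filters, probe-set means, renormalization, trended or weighted fits, the block, list edits and leaving out lines or pairs.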

Additional observations from a re-analysis of the deposited data

How the results depend on the processing

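No alternative called a gene in any of the 3 contrasts by limma. With the pair number as a replicate block, the smallest adjusted p over the 8382 genes was 0.262 for unstable against stable lines. It was 0.219 for BubR1 and 0.306 for the difference between loci. For unstable against stable lines with the block and without pair 9515, 9938 or 10074 (not planned beforehand), it was 0.227, 0.208 and 0.219. At an unadjusted p under 0.05, 246 genes were lower and 113 higher without the block, and 580 and 439 with it. The block changed no call. The mitotic median stayed below 0 in every setting. It was -0.57 with the mean of probe sets, -0.67 without Kif2a and -0.68 with Kif22 from its second probe set (added after seeing the data), and -0.83 to -0.31 with lines or pairs left out, while 7 or 8 of the 8 members stayed lower. The transport median was 0.18 with the mean of probe sets, and 0.073 to 0.18 with lines or pairs left out, with 9 to 11 of 13 members higher. Of 144 values for single mitotic kinesins under alternatives 141 kept their direction, and all 3 that turned were of Kif2a (-0.12 to 0.15 over the fits that leave out lines or pairs). Of 233 transport values 216 did. Both counts take in settings that cannot turn a gene's difference. The filters, the trended fit and the block leave it unchanged, as do probe-set means for genes with 1 probe set. The second Kif22 probe set changes no other gene. With the mean of probe sets Kif1b was 0.063 and Kif1c 0.018. In fits that left out lines or pairs 6 transport genes turned in sign, with ranges of -0.12 to 0.036 for Kif1c, -0.011 to 0.23 for Kif3b, -0.097 to 0.19 for Kif5b, -0.18 to 0.053 for Kif13a, -0.087 to 0.48 for Kif21a and -0.090 to 0.37 for Klc3. The causes were not tested. With 6 arrays, differences as small as those of most transport kinesins cannot be told from 0.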

Other observations

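All probe sets of each gene were read as well, the brightest included, and those of 1 gene are not independent. For the 7 mitotic kinesins other than Kif2a, 13 probe sets reached log2 4 on at least 3 arrays, 13 of them had a lower mean in unstable lines, and 11 were lower in all 3 pairs. For the transport kinesins 31 probe sets did, of which 6 had a lower mean in unstable lines and 0 were lower in all 3 pairs. The 6 such probe sets of Kif1b ran from -0.55 to 0.39 in pair 9938 and from -0.09 to 0.52 in pair 10074. Their signs thus differ within a pair. By brightest probe sets, 52.1% of all genes tested had a lower mean in unstable lines and 19.3% were lower in all 3 pairs. Shares over all probe sets on the array were not computed.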
